A study of Mus musculus with 9 samples.

Results

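The genes described here encode 10 proteins of T cell regulation, namely surface receptors with their counterparts, 2 ectoenzymes and a nuclear factor: Tigit, Cd226, Cd96, Lag3, Havcr2, Cd200, Cd160, Entpd1, Nt5e and Tox. They were taken by symbol from a table of 45808 genes, and all 10 symbols were found. Of them, 9 had enough counts to be tested among 7858 tested genes, and Cd160 did not. RNA was measured in ICOS+ CD4 tumour-infiltrating lymphocytes sorted from MC38 tumours, a mouse colon carcinoma line, grown in C57BL/6J mice and taken on day 12 after injection. The mice had been given anti-CTLA-4 (3 mice), anti-PD-1 (3 mice) or the control treatment (3 mice, Control), and each mouse gave 1 library. All 3 groups carried the same tumour and passed the same ICOS+ gate, so CD4 cells without ICOS were not analysed here. The sources used here do not give what the control mice received, the antibody clones and doses, or how many cells were sorted. The comparisons ask how blockade of CTLA-4 or of PD-1 bears on the RNA of these genes in that cell subset.

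TIGIT is an inhibitory receptor on T cells and NK cells that binds PVR (CD155) with high affinity, while CD226 is an activating receptor for the same ligand and CD96 a further receptor for it. LAG-3, which binds MHC class II, and TIM-3, the product of Havcr2, restrain effector T cells, and both are found with PD-1 on T cells that have met antigen for a long time. CD39 (Entpd1) and CD73 (Nt5e) act in sequence outside the cell to turn ATP into adenosine, a route used by regulatory T cells. TOX is a nuclear factor that maintains the programme of exhausted T cells.

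Tigit was the most abundant of the 10 genes per kilobase of exon in each group, and it was the only one whose 3 groups did not overlap at all in counts scaled to library totals, anti-CTLA-4 being lowest and anti-PD-1 highest. Lag3 and Nt5e were lower in every anti-CTLA-4 library than in every Control library on that scale, whereas with RLE scaling factors the fitted signs of Tigit and Lag3 against Control turned. Cd96 had no more than 30 counts in any of the 3 anti-PD-1 libraries, against at least 171 in each Control library. Of all tested genes, 10.4% were lower without overlap in anti-CTLA-4 against Control and 7.33% in anti-PD-1 against Control. The order of groups seen for Tigit was found without overlap in 0.28% of them. None of the 9 tested genes passed an adjusted p of 0.05 in any comparison with edgeR's quasi-likelihood test, so these are orders of values and not called changes.

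The libraries differ in how many genes they caught. Gene counts summed to between 25530333 and 41508589 per library, and a count of 3, used as the floor for a gene at 0, equals 0.0723 to 0.118 CPM (counts scaled to 1000000 gene counts), which covers counting error only. Between 5124 and 6309 genes reached 5 CPM in 7 of the libraries, against 2662 in anti-CTLA-4 replicate 2 and 4209 in anti-PD-1 replicate 2. Genes switching between libraries were common: 72.7% of tested genes stood under 1 CPM in at least 1 library and at 50 CPM or more in another. Between mice, the fit's common dispersion amounts to a coefficient of variation of 1.84. Anti-CTLA-4 replicate 2 stood apart in its markers. Cd3e was at 0.59 CPM and Cd4 at 24.5 CPM in it, against at least 347 and 308 CPM elsewhere, whereas the T cell genes Cd3d, Cd3g and Trac were higher in it than in any other library, at 696, 649 and 632 CPM. In it 14 macrophage and monocyte markers summed to 7114 CPM and 6 fibroblast markers to 1587 CPM, against 250.3 to 1099 CPM and 31.4 to 378 CPM in the other 8 libraries. Dendritic cell markers summed to 7.27 to 249.8 CPM and endothelial markers to 0.0279 to 184 CPM per library. Cd8a and 4 of 5 NK cell markers were at 0 in every library, and Cd8b1 was at 125 CPM in anti-PD-1 replicate 3 and at no more than 0.118 CPM elsewhere. The part that library depth or RNA of other cells plays in the results was not tested.

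Tigit (ENSMUSG00000071552) lies on chromosome 16 at 43648867 to 43664146 on the minus strand (GRCm38). Cd96 (ENSMUSG00000022657) lies on the same chromosome and strand at 46035657 to 46120251. The 250 bases before the RefSeq start of each gene are printed because both encode receptors for PVR, and Tigit was detected in every library while Cd96 was not. They are RefSeq sequence of GRCm38.p6, read 5′ to 3′ on the gene's strand, with capitals marking matches to the RUNX motif TGTGGT and to the NFAT core motif GGAAA, searched on both strands, so that some are printed as the reverse complement.
Tigit, chr16:43664185-43664434, minus strand: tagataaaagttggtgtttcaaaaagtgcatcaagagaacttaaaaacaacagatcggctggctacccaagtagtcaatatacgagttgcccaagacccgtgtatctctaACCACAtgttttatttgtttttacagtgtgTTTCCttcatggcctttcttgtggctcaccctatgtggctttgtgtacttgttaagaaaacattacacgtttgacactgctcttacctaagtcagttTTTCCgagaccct
Cd96, chr16:46120249-46120498, minus strand: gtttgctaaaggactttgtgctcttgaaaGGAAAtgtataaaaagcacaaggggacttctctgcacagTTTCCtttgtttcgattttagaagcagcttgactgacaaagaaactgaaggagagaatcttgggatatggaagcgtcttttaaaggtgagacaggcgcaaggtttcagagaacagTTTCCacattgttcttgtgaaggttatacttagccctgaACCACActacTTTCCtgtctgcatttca
The Tigit window holds a RUNX match 140 bases before the start and NFAT core matches 110 and 13 bases before it. The Cd96 window holds a RUNX match 28 bases before the start and NFAT core matches at 221, 182, 67 and 18 bases. Of 32851 promoter windows of the same length, 14.0% hold the RUNX letters and 55.6% the NFAT core letters. The AP-1 letters TGANTCA, present in 6.75% of those windows, are in neither sequence. The matches are letters only, and binding was not measured here.

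Tigit, the inhibitory receptor of the PVR axis, was detected in every library. It stood at 4296, 1173 and 2639 CPM in anti-CTLA-4 replicates 1, 2 and 3, at 6581, 6389 and 8247 CPM in anti-PD-1 mice and at 4530.5, 5337 and 6352 CPM in Control mice. Every anti-CTLA-4 library was below every Control library, and every anti-PD-1 library was above every Control library. Only 0.28% of tested genes separated the 3 groups in that order, and 0.496% did so in any order. The means were 2703 ± 1562 CPM under anti-CTLA-4, 7072 ± 1022 CPM under anti-PD-1 and 5406 ± 913 CPM in Control (SD, n = 3 mice each). Tigit took 0.117% to 0.43% of all gene counts in anti-CTLA-4 mice, 0.639% to 0.825% in anti-PD-1 mice and 0.453% to 0.635% in Control mice. Summed markers of cell type also differed between the libraries. The summed level of 7 T cell markers, Icos among them, was 3786, 2547 and 3483 CPM in anti-CTLA-4 mice, 5198, 5228 and 5407 CPM in anti-PD-1 mice and 3828, 3595 and 5281 CPM in Control mice. Like Tigit, this sum was lowest in anti-CTLA-4 replicate 2 and highest in anti-PD-1 replicate 3, but Control overlapped both treated groups in it. The sum of the 14 macrophage and monocyte markers was 1099, 7114 and 414 CPM in anti-CTLA-4 mice, 250.3, 553 and 538 CPM in anti-PD-1 mice and 727, 290.4 and 333 CPM in Control mice. Of that list 11 genes were tested, and Nos2 and Cd68 were called higher in anti-CTLA-4 against anti-PD-1 (adjusted p = 0.0134 and 0.0271, edgeR). Without anti-CTLA-4 replicate 2 neither was called (adjusted p = 0.882 and 0.577, edgeR). The part of these marker sums in the Tigit values was not tested. These are bulk samples, so fewer cells with a transcript and less of it per cell cannot be told apart.

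**Figure D1:**
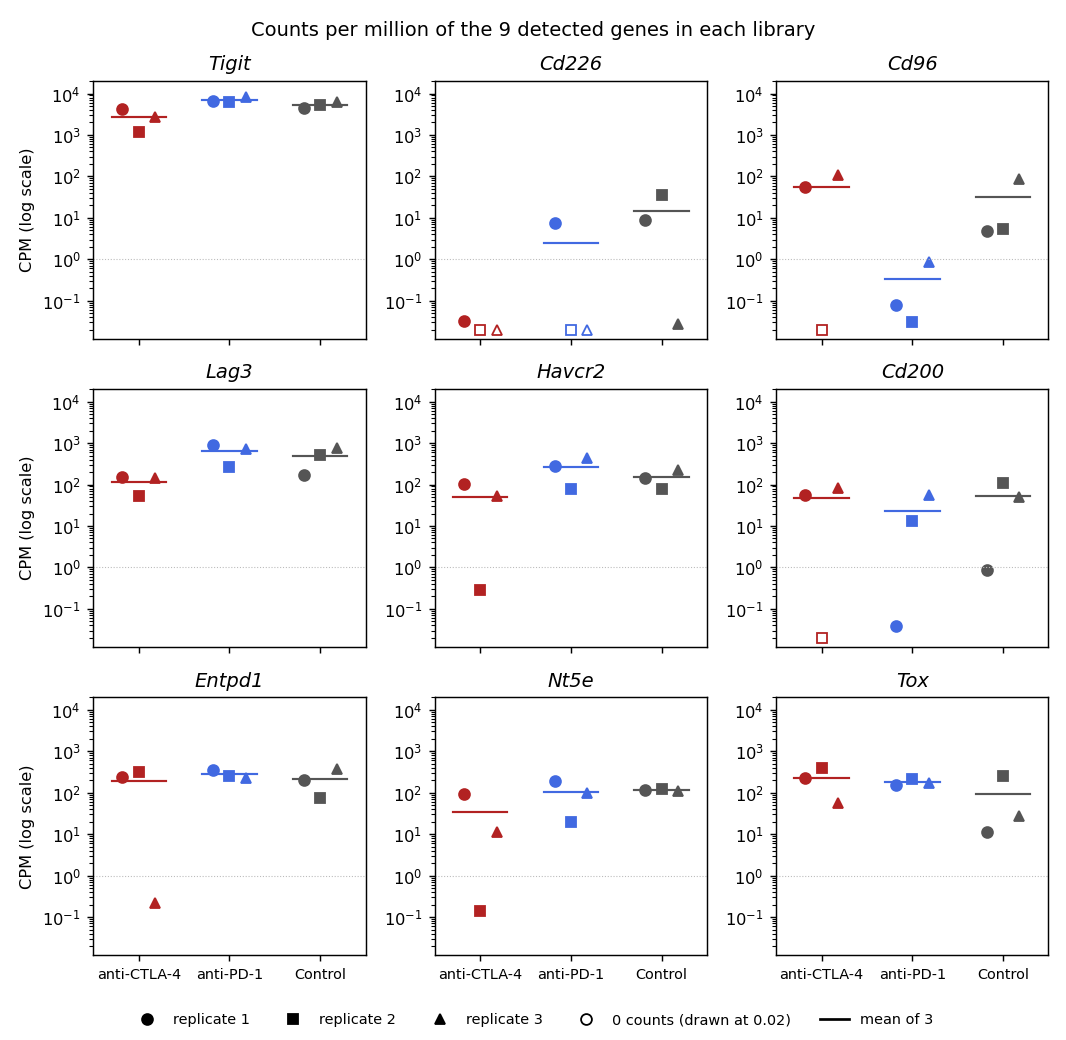
CPM of the 9 detected genes in each of the 9 libraries, on a log axis, with anti-CTLA-4, anti-PD-1 and Control from left to right in each panel; each point is 1 mouse, an open point has 0 counts, and the short line is the group mean. Tigit is at 1173 CPM or more in every library with the 3 groups apart, while Cd96, Cd200 and Cd226 are at 0 in some libraries and reach 108, 109.7 and 34.9 CPM in others.

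The widest fitted difference of Tigit was between the treatments: its log2 fold change was -1.14 ± 0.37 (SE) for anti-CTLA-4 against anti-PD-1, with an unadjusted p of 0.00206 and an adjusted p of 0.126 (edgeR, quasi-likelihood, Benjamini-Hochberg). It ranked 129 of 7858 genes by p in that comparison. Against Control the fitted change was -0.52 ± 0.37 under anti-CTLA-4 (adjusted p = 0.647, edgeR) and 0.62 ± 0.37 under anti-PD-1 (adjusted p = 0.95, edgeR). The test over the 3 groups gave an unadjusted p of 0.00767 and an adjusted p of 0.241 (edgeR). Both comparisons with Control use the same 3 Control libraries and are not independent of each other.

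The direction of the anti-CTLA-4 values depends on how the libraries are scaled. With TMM factors the Tigit levels were 3814, 2914 and 2491 scaled CPM in anti-CTLA-4 mice, 5672, 7671 and 7002 in anti-PD-1 mice and 3839.5, 4239.6 and 5160.5 in Control mice, and the groups still did not overlap. The TMM factor of anti-CTLA-4 replicate 2 was 0.403, whereas its RLE factor was 0.0615. With RLE factors the log2 fold change of Tigit turned to 1.32 for anti-CTLA-4 against Control (adjusted p = 0.846, edgeR) and to 0.49 for anti-CTLA-4 against anti-PD-1 (adjusted p = 0.943, edgeR), and DESeq2 gave the same values of 1.32 and 0.49. RLE factors also moved the median of all tested genes to 0.56 and 0.45 in those comparisons, against 0.01 and -0.05 with TMM factors. Relative to that median, Tigit stood at 0.75 and 0.04 with RLE factors and at -0.53 and -1.09 with TMM factors.

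Without anti-CTLA-4 replicate 2 the treatments differed in Tigit by -1.08, with an adjusted p of 0.0358 (edgeR), and anti-CTLA-4 stood at -0.47 against Control, with an adjusted p of 0.657 (edgeR). Without anti-CTLA-4 replicate 1 the value was -1.40 and the adjusted p 0.0206 (edgeR). Leaving out both libraries with the fewest genes, anti-CTLA-4 replicate 2 and anti-PD-1 replicate 2, gave -0.98 and an adjusted p of 0.0225 (edgeR). Scaling to library totals alone gave -1.39 and an adjusted p of 0.000855 (edgeR). The call was thus reached under 4 of 18 alternatives, whose adjusted p ranged from 0.000855 to 0.943 in all.

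**Figure D2:**
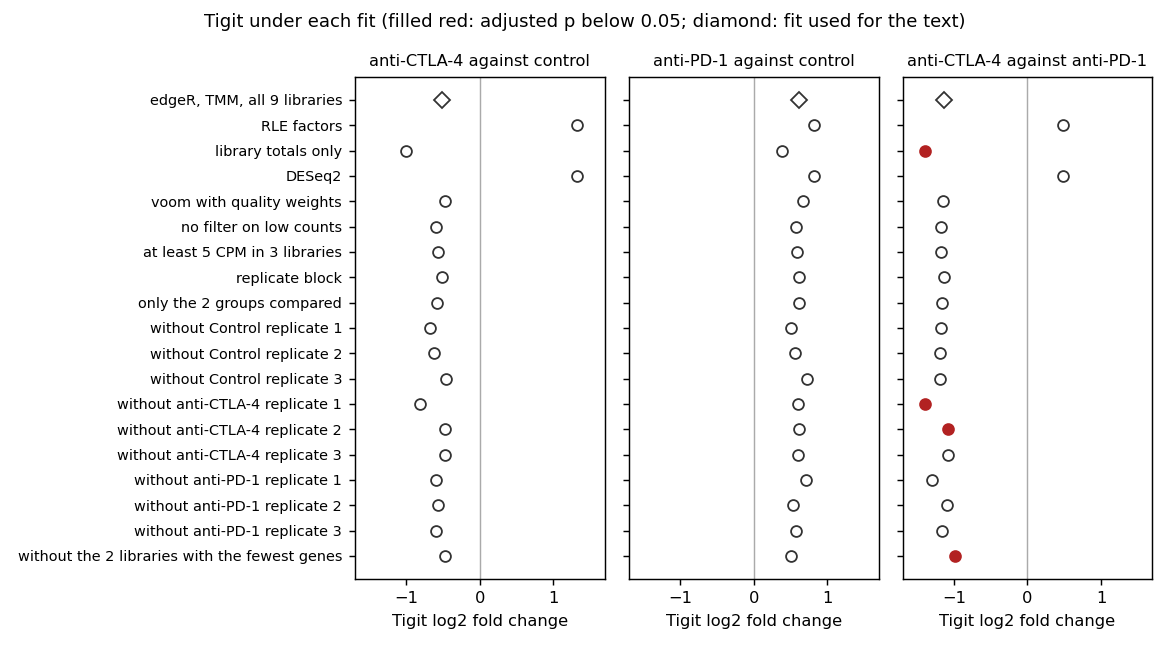
Fitted log2 fold change of Tigit in the 3 comparisons with TMM factors (diamonds) and under each alternative (circles); filled points have an adjusted p under 0.05. For anti-CTLA-4 against anti-PD-1 the values lie at or below -0.98 except with RLE factors and DESeq2, where they are 0.49.

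The gene whose pattern over the 9 libraries was nearest to Tigit was Icos, the costimulatory receptor by which the cells were sorted. Their centred log2 values differed by a root mean square of 0.239, where the median over 3537 candidate genes was 2.05. Med13, a Mediator kinase module subunit, followed at 0.292 and Wnk1, a kinase, at 0.34. Icos stood at 1986, 507 and 1706 CPM in anti-CTLA-4 mice, at 2547, 2876 and 2869 CPM in anti-PD-1 mice and at 1851, 2042 and 2866 CPM in Control mice. The ratio of Tigit CPM to Icos CPM, computed after these values were seen, does not depend on library scaling. It was 2.16, 2.31 and 1.55 in anti-CTLA-4 mice, 2.58, 2.22 and 2.87 in anti-PD-1 mice and 2.45, 2.61 and 2.22 in Control mice. The groups overlapped in this ratio, at 2.01 ± 0.406 under anti-CTLA-4, 2.56 ± 0.327 under anti-PD-1 and 2.43 ± 0.199 in Control (SD, n = 3 each). Anti-CTLA-4 replicate 2, the lowest library in Tigit CPM, did not stand apart in it.

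**Figure D3:**
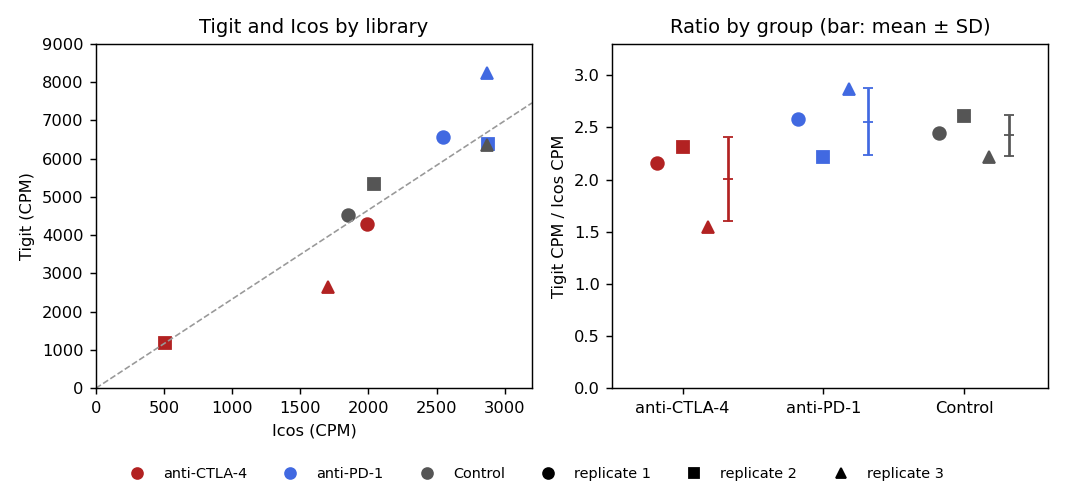
Tigit CPM against Icos CPM in the 9 libraries, and the ratio of Tigit to Icos by group; points are mice. Libraries low in Icos are low in Tigit, and the ratio lies between 1.55 and 2.87 in all 9, with overlapping groups.

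Cd226 (ENSMUSG00000034028, chromosome 18, 89176967 to 89272229, plus strand), the activating counterpart of TIGIT, was sparse. It had 1, 0 and 0 counts in anti-CTLA-4 mice. It stood at 7.52, 0 and 0 CPM in anti-PD-1 mice and at 8.82, 34.9 and 0.0279 CPM in Control mice. No more than 1 count was seen in any anti-CTLA-4 library, but 1 Control library and 2 anti-PD-1 libraries were equally low. For anti-CTLA-4 against Control the unadjusted p was 0.0458 and the adjusted p 0.435 (edgeR), and a fold is not given because the anti-CTLA-4 libraries are at the floor.

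Cd96, the other PVR receptor, stood at 55.4, 0 and 108 CPM in anti-CTLA-4 mice, at 0.0783, 0.0302 and 0.877 CPM in anti-PD-1 mice and at 4.75, 5.5 and 86.4 CPM in Control mice. Every anti-PD-1 library was below every Control library, as for 7.33% of all tested genes, while the anti-CTLA-4 libraries spanned the whole range. In counts, the anti-PD-1 libraries held 2, 1 and 30, against 197, 171 and 3092 in Control. The adjusted p was 0.996 for anti-PD-1 against Control and 0.395 for anti-CTLA-4 against anti-PD-1 with edgeR. DESeq2 called both, with adjusted p of 0.0324 and 0.00461, and was the only alternative to do so.

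Lag3 (ENSMUSG00000030124, chromosome 6, 124904361 to 124911705, minus strand), the MHC class II receptor, followed Tigit in abundance per kilobase. It stood at 152, 53.9 and 143 CPM in anti-CTLA-4 mice, at 922, 266 and 707 CPM in anti-PD-1 mice and at 172, 527 and 751 CPM in Control mice. The anti-CTLA-4 libraries were below all 6 others, and the anti-PD-1 and Control libraries overlapped. Of all tested genes, 10.4% were lower without overlap under anti-CTLA-4 against Control, and 6.95% against anti-PD-1. With TMM factors the 3 anti-CTLA-4 libraries were almost equal, at 135, 134 and 135 scaled CPM, against 795, 319 and 600.3 in anti-PD-1 mice and 146, 419 and 610 in Control mice. This near-equality rests on the TMM factor of anti-CTLA-4 replicate 2, 0.403, whereas its RLE factor was 0.0615. Means were 116 ± 54.0 CPM under anti-CTLA-4, 632 ± 335 CPM under anti-PD-1 and 483 ± 292 CPM in Control (SD, n = 3 each).

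The fitted log2 difference of Lag3 was -2.09 ± 1.13 for anti-CTLA-4 against anti-PD-1, with an unadjusted p of 0.0654 and an adjusted p of 0.384 (edgeR). Against Control it was -1.54 ± 1.11 under anti-CTLA-4 (adjusted p = 0.67, edgeR) and 0.54 ± 1.09 under anti-PD-1 (adjusted p = 1, edgeR). Without anti-CTLA-4 replicate 2 these values for anti-CTLA-4 were -2.05 against anti-PD-1 (adjusted p = 0.513, edgeR) and -1.54 against Control (adjusted p = 0.657, edgeR). Without the 2 libraries with the fewest genes the treatments differed by -2.34, with an adjusted p of 0.0442 (edgeR). With RLE factors and with DESeq2 the sign against Control turned, to 0.34. The median of all tested genes was 0.56 in that comparison with RLE factors. Relative to the median, Lag3 stood at -0.22 with RLE factors and at -1.55 with TMM factors. Gzmb, the cytotoxic protease granzyme B, was among the 3 genes nearest to Lag3 in pattern, at a root mean square of 0.586, after Neb at 0.482 and Raph1 at 0.512. Lag3 stood at 0.0353 to 0.054 of Tigit's CPM in anti-CTLA-4 mice, at 0.0416 to 0.14 in anti-PD-1 mice and at 0.0381 to 0.118 in Control mice, so this ratio overlapped between the groups.

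Havcr2 (ENSMUSG00000020399, chromosome 11, 46454935 to 46481255, plus strand), which encodes TIM-3, stood at 102, 0.281 and 51.7 CPM in anti-CTLA-4 mice, at 274, 78.3 and 435.1 CPM in anti-PD-1 mice and at 144, 76.0 and 228 CPM in Control mice. The mean was lowest under anti-CTLA-4 and highest under anti-PD-1, the order seen for Tigit and Lag3, but all pairs of groups overlapped. Fitted differences were -2.32 ± 1.84 for anti-CTLA-4 against anti-PD-1, -1.39 ± 1.79 for anti-CTLA-4 against Control and 0.93 ± 1.77 for anti-PD-1 against Control (adjusted p = 0.672, 1 and 1, edgeR). Its nearest genes were Ociad1, Hnrnpk and Mxd4, at 0.516 to 0.604. Their lowest values were 0.169 to 0.366 CPM, beside 0.281 CPM for Havcr2.

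Cd200 (ENSMUSG00000022661, chromosome 16, 45382135 to 45409053, minus strand), a membrane ligand that restrains myeloid cells through CD200R, stood at 56.2, 0 and 84.8 CPM in anti-CTLA-4 mice, at 0.0392, 13.3 and 54.6 CPM in anti-PD-1 mice and at 0.867, 109.7 and 51.0 CPM in Control mice. Each group held 1 library under 1 CPM, and the groups overlapped. No fitted difference of Cd200 was larger than 1.06 in size, and each was smaller than its SE of 2.89 to 2.92.

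Cd160 (ENSMUSG00000038304, chromosome 3, 96798763 to 96829351, minus strand), an HVEM receptor of cytotoxic cells, had no count in any library and was not tested. A count of 0 allows up to 3 counts, or 0.0723 to 0.118 CPM depending on the library. Its locus overlaps Pdzk1 on the other strand, and whether reads over both genes were set aside depends on the strand setting of the counting, which is not stated beyond the table being named as first-strand. Of all listed genes, 70.3% were at 0 everywhere.

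Entpd1 (ENSMUSG00000048120, chromosome 19, 40612366 to 40741602, plus strand), the ATP-hydrolysing ectoenzyme CD39, stood at 245, 323 and 0.214 CPM in anti-CTLA-4 mice, at 351, 255 and 225 CPM in anti-PD-1 mice and at 202, 74.8 and 367 CPM in Control mice. All libraries but anti-CTLA-4 replicate 3 held it at 74.8 CPM or more, and the groups overlapped. The fitted change against Control was 0.95 ± 1.29 under anti-CTLA-4 and 0.60 ± 1.28 under anti-PD-1 (adjusted p = 1 for both, edgeR). Its mean under anti-CTLA-4 was below that in Control without scaling factors, at 189.5 ± 169 CPM and 215 ± 147 CPM, and above it with TMM factors, at 340.2 ± 415 and 176 ± 119.6 scaled CPM (SD, n = 3 each). Without anti-CTLA-4 replicate 2, the change under anti-CTLA-4 against Control was -0.69. Fcgr2b, an inhibitory Fc receptor of myeloid and B cells, was among the 3 genes nearest to Entpd1, at 0.824, after Frrs1 at 0.554 and Zfp142 at 0.809. Gm16027, Gm8783 and AC166063.1 overlap the Entpd1 locus on the same strand, and whether they share exon bases with it was not examined.

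Nt5e (ENSMUSG00000032420, chromosome 9, 88327197 to 88372092, plus strand), the AMP-hydrolysing ectoenzyme CD73, stood at 91.1, 0.141 and 11.0 CPM in anti-CTLA-4 mice, at 195, 20.1 and 98.0 CPM in anti-PD-1 mice and at 115, 119.9 and 109 CPM in Control mice. The Control libraries were close together, at 115 ± 5.5 CPM, and every anti-CTLA-4 library was below them, at 34.1 ± 49.7 CPM (SD, n = 3 each). Such an order was found for 10.4% of all tested genes. The anti-PD-1 libraries lay on both sides of Control. The fitted change was -1.62 ± 2.29 under anti-CTLA-4 and -0.03 ± 2.23 under anti-PD-1 against Control (adjusted p = 1 for both, edgeR), and -1.59 ± 2.29 for anti-CTLA-4 against anti-PD-1 (adjusted p = 0.948, edgeR). Without anti-CTLA-4 replicate 2 the change under anti-CTLA-4 against Control was -1.03 (adjusted p = 1, edgeR).

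Tox (ENSMUSG00000041272, chromosome 4, 6686353 to 6991557, minus strand) stood at 225, 389 and 55.1 CPM in anti-CTLA-4 mice, at 156, 217 and 169.6 CPM in anti-PD-1 mice and at 11.1, 247 and 27.3 CPM in Control mice. It was low in Control replicates 1 and 3, but Control replicate 2 was above all 3 anti-PD-1 libraries. The means were 223 ± 167 CPM under anti-CTLA-4, 181 ± 32.1 CPM under anti-PD-1 and 95.0 ± 132 CPM in Control (SD, n = 3 each). The fitted change against Control was 2.42 ± 1.46 under anti-CTLA-4 (adjusted p = 0.504, edgeR) and 1.24 ± 1.41 under anti-PD-1 (adjusted p = 1, edgeR). Without anti-CTLA-4 replicate 2 the change under anti-CTLA-4 was 0.73, and without Control replicate 2 it was 4.53. Itgb7, an integrin subunit, was nearest to Tox in pattern, at 0.525. Gm11802 lies antisense within the Tox locus, and its reads are kept from those of Tox only if strand was used in counting.

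**Figure D4:**
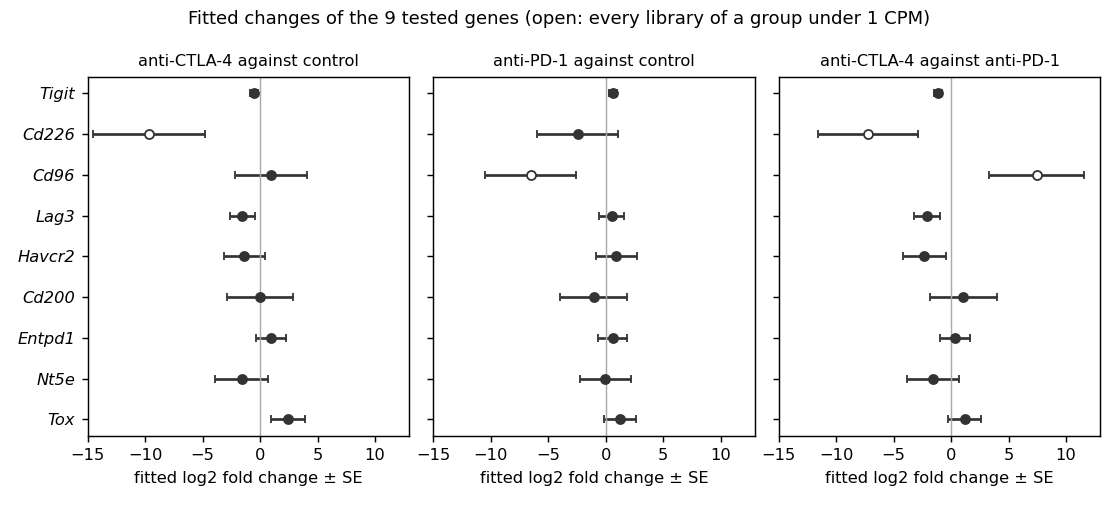
Fitted log2 fold change of the 9 tested genes in the 3 comparisons, with bars of 1 approximate SE; open points mark genes with every library of a group under 1 CPM, whose fitted value is not a measured fold. Tigit has the shortest bars, at 0.37, and no gene passes an adjusted p of 0.05.

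Counted over the 9 tested genes, edgeR's quasi-likelihood test called 0 in anti-CTLA-4 against Control, where it called 0.369% of all tested genes. It called 0 in anti-PD-1 against Control, where it called 0.0764% of all, and 0 in anti-CTLA-4 against anti-PD-1, where it called 0.827%. At an unadjusted p of 0.05 the counts were 1 (Cd226), 0 and 1 (Tigit), against 11.3%, 6.01% and 14.1% of all tested genes. DESeq2 called 0, 1 and 1 of them, beside 7.3%, 5.37% and 10.8% of all tested genes. Voom with quality weights called 0 of them in each comparison, beside 0%, 0.0127% and 0.0255% of all. In the test over the 3 groups edgeR called 0 of the 9 genes and 1.53% of all; at an unadjusted p of 0.05 it was 1 gene, Tigit, and 8.97% of all. There DESeq2 called 0 of the 9 genes and 0.865% of all, and voom called 1 of the 9 and 0.191% of all.

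Groups did not overlap for 3 of the 9 genes in anti-CTLA-4 against Control, all lower under anti-CTLA-4 (Tigit, Lag3 and Nt5e), where 10.4% of all tested genes were lower without overlap. In anti-PD-1 against Control they did not overlap for 2 genes, Tigit higher and Cd96 lower, where 3.45% of all genes were higher and 7.33% lower in this way. In anti-CTLA-4 against anti-PD-1 they did not overlap for Tigit and Lag3, both lower, where 6.95% of all were. The fitted change was above 0 for 4, 5 and 4 of the 9 genes in these 3 comparisons, beside 50.2%, 52.4% and 49.1% of all tested genes. The median fitted change of the 9 genes was -0.52, 0.54 and -1.14, beside 0.01, 0.07 and -0.05 over all tested genes. The number of the 10 genes under 1 CPM was 2, 6 and 3 in anti-CTLA-4 mice, 3, 3 and 3 in anti-PD-1 mice and 2, 1 and 2 in Control mice. Of all tested genes, 33.2%, 64.4% and 36.3% were under 1 CPM in anti-CTLA-4 mice, 31.9%, 46.6% and 26.1% in anti-PD-1 mice and 23.4%, 23.3% and 24.7% in Control mice. The part of this detection in the counts without overlap was not tested. Only Tigit, Lag3 and Tox reached 5 CPM in all 9 libraries, which 13.7% of tested genes did.

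Levels of different genes were set side by side as CPM per kilobase of merged exons. On that scale Tigit came first in each group, at 2941 ± 1699.9 under anti-CTLA-4, 7696 ± 1112 under anti-PD-1 and 5883 ± 993 in Control (SD, n = 3 each). Lag3 came second in each, at 55.0 ± 25.6 CPM per kilobase under anti-CTLA-4, 299 ± 159 under anti-PD-1 and 229 ± 138 in Control. Tigit's lowest library was above Lag3's highest in every group. Below Lag3 the order differed between groups: Havcr2 held place 6 under anti-CTLA-4, at 18.9 ± 18.7, and place 3 under anti-PD-1, at 96.4 ± 65.7, and in Control, at 55.0 ± 28.0. Tox held place 4 under anti-CTLA-4, at 29.3 ± 21.9, place 5 under anti-PD-1, at 23.8 ± 4.22, and place 8 in Control, at 12.5 ± 17.3. Among the 9 detected genes, neighbours in these orders overlapped in their ranges except Tigit and Lag3 in each group, Entpd1 and Tox under anti-PD-1, and Nt5e and Cd226 under anti-CTLA-4. Tigit alone made up 60.5% to 85.3% of the summed CPM of the 10 genes in anti-CTLA-4 mice, 77.5% to 88.3% in anti-PD-1 mice and 79.7% to 87.3% in Control mice.

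**Figure D5:**
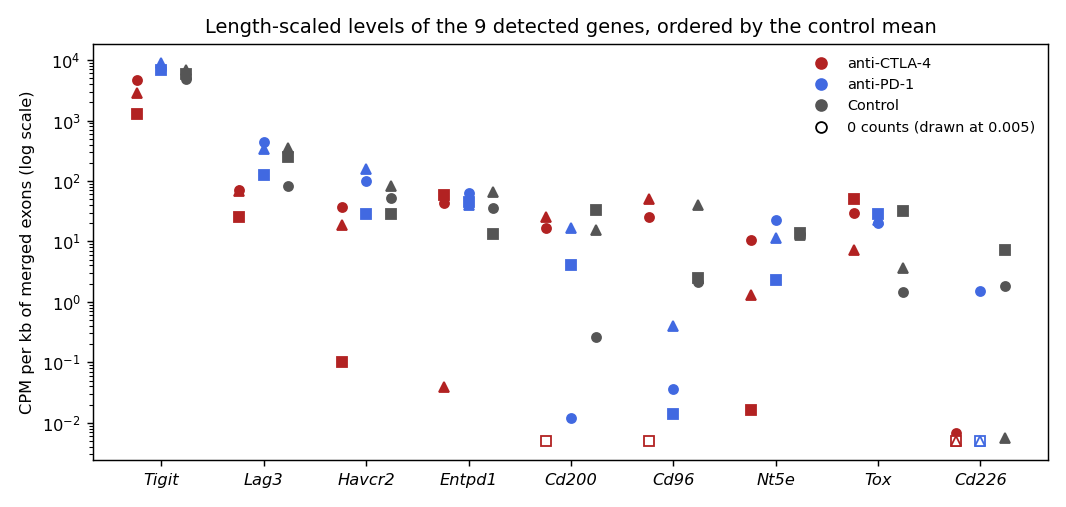
CPM per kilobase of merged exons of the 9 detected genes on a log axis, in the order of their Control means; each point is 1 mouse (circle, square and triangle for replicates 1, 2 and 3) and an open point has 0 counts. Mean Tigit stands at 2941 under anti-CTLA-4, 7696 under anti-PD-1 and 5883 in Control, above Lag3 at 55.0, 299 and 229, and the remaining genes have lower means.

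The ligands and partner receptors of these genes were covered by a list of which 13 genes were in the table and 7 were tested. None was called in any comparison (lowest adjusted p = 0.435, 0.84 and 0.393, edgeR). The ligand gene Pvr, expressed on tumour and myeloid cells, stood at 16.4, 139.5 and 0.153 CPM in anti-CTLA-4 mice, at 42.4, 0.121 and 295 CPM in anti-PD-1 mice and at 153, 180.4 and 101 CPM in Control mice. The groups overlapped for Pvr. Hmgb1, a nuclear protein that binds TIM-3 when released, was detected in every library, at 159 to 194 CPM under anti-CTLA-4, 81.3 to 139 CPM under anti-PD-1 and 103 to 171 CPM in Control. Lgals9, which encodes the TIM-3 ligand galectin-9, stood at 0.112 to 114 CPM under anti-CTLA-4, 0.0392 to 139 CPM under anti-PD-1 and 11.6 to 289 CPM in Control, with overlap. Tnfrsf14, which encodes HVEM, the partner of CD160, stood at 28.5, 0.0843 and 77.4 CPM in anti-CTLA-4 mice, at 0.0392, 0.0302 and 56.1 CPM in anti-PD-1 mice and at 0.0241, 0.0643 and 0.0279 CPM in Control mice. All 3 anti-CTLA-4 libraries were above all 3 Control libraries, replicate 2 only within the floor of 3 counts (adjusted p = 0.435, edgeR). Fgl1, a LAG-3 ligand, and Ceacam1, a TIM-3 ligand, were at 0 in every library.

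Among 10 signalling partners, of which 9 were tested, none was called (lowest adjusted p = 0.73, 1 and 0.426, edgeR). Lck, the kinase at the CD4 tail, stood at 204, 165 and 422 CPM in anti-CTLA-4 mice, at 241, 4.86 and 152 CPM in anti-PD-1 mice and at 3.71, 374 and 444.1 CPM in Control mice. Each group of Lck values overlapped the others. Itgal and Itgb2, which together encode the integrin LFA-1, a partner of CD226, were detected throughout, Itgal at 159 to 815 CPM under anti-CTLA-4, 533 to 983 CPM under anti-PD-1 and 537 to 633 CPM in Control. Itgb2 stood at 204 to 449.9 CPM under anti-CTLA-4, 224 to 683 CPM under anti-PD-1 and 187 to 415 CPM in Control. Of 14 genes that handle extracellular ATP and adenosine, 7 were tested and none was called (lowest adjusted p = 0.435, 0.941 and 0.345, edgeR). Cd38, an NAD-hydrolysing ectoenzyme, stood at 111, 0.197 and 0.0306 CPM in anti-CTLA-4 mice, at 0.0783, 182 and 182 CPM in anti-PD-1 mice and at 67.2, 64.3 and 75.4 CPM in Control mice. Dpp4, which anchors adenosine deaminase on T cells, stood at 8.93, 0 and 0.0612 CPM in anti-CTLA-4 mice, at 1.45, 0.0604 and 24.5 CPM in anti-PD-1 mice and at 6.91, 118 and 76.3 CPM in Control mice. P2rx7, an ATP-gated channel, stood at 281 CPM in anti-CTLA-4 replicate 2, at 96.7 CPM in anti-PD-1 replicate 1 and at 22.3 CPM in Control replicate 2, the highest value of each group. The groups overlapped for these 3 genes, and no P2rx7 difference had an adjusted p under 0.964 without anti-CTLA-4 replicate 2 (edgeR).

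Of 14 genes of the TOX family and of chronic T cell stimulation, 12 were tested and none was called (lowest adjusted p = 0.482, 0.823 and 0.0899, edgeR). Ikzf2, which encodes Helios, a factor of regulatory T cells, was high everywhere, at 719 to 1602 CPM under anti-CTLA-4, 1637 to 1811 CPM under anti-PD-1 and 1664 to 1948 CPM in Control. All 3 anti-CTLA-4 libraries were below all others for Ikzf2 in CPM, with the lowest value in replicate 2. With TMM factors its fitted change under anti-CTLA-4 against Control was -0.01 ± 0.58 (adjusted p = 1, edgeR). Nr4a1, an early gene of T cell receptor signalling, stood at 158 to 720.3 CPM under anti-CTLA-4, 139 to 336 CPM under anti-PD-1 and 182 to 685 CPM in Control, with overlap. Nr4a3, of the same family, stood at 729, 54.4 and 522 CPM in anti-CTLA-4 mice, at 62.7, 90.1 and 250.1 CPM in anti-PD-1 mice and at 392, 794 and 387 CPM in Control mice. Every anti-PD-1 library was below every Control library for Nr4a3, which was not called. Tox2, a relative of Tox named after its values were seen, had the lowest p of the list, for anti-CTLA-4 against anti-PD-1. Its values were 0.0656, 425 and 17.4 CPM in anti-CTLA-4 mice, 4.9, 0.0604 and 0.0877 CPM in anti-PD-1 mice and 0.0482, 131 and 0 CPM in Control mice. The groups overlapped, and without anti-CTLA-4 replicate 2, which held the highest value, the adjusted p was 0.941 (edgeR).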

How the data were processed

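RNA was sequenced from ICOS+ CD4 tumour-infiltrating lymphocytes of 9 mice, with libraries from a single-cell amplification kit read as 76-nt pairs, per the labels' protocols. The authors deposited raw counts per gene symbol for each mouse, with no normalization. TopHat2, HTSeq, DESeq2 and GRCm38 are named in the submitters' processing notes, with no version, and the deposited table is named as first-strand with no counting setting stated. HTSeq entries that name no gene took 59.3% to 67.1% of all counts and entered neither library sizes nor tests.

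CPM are counts scaled to 1000000 gene counts, printed without further factors and as mean ± SD. Genes kept by filterByExpr (minimum count 10) were tested over all 9 libraries with edgeR 4.0.16 (R 4.3.3; robust quasi-likelihood fit, TMM factors, group as the only term), adjusted by Benjamini-Hochberg over all 7858 genes, with a threshold of 0.05. The SE is approximate, the fitted change divided by the root of its F statistic. The labels name mice but give no litters or cages, and p-values measure the spread between these mice only.

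Alternatives were RLE factors, library totals only, DESeq2 1.42.0, limma 3.58.1 voom with quality weights, no filter, a filter of 5 CPM in 3 libraries, a replicate block, only the 2 groups compared, and leaving out each library. Omitting both gene-poor libraries (the 2 with the fewest genes) was added after seeing the data. Genes and lists were chosen with earlier results of these data known. Named genes were the 10 genes always, list genes past the threshold, the 3 of each list with the highest mean CPM, and some binding partners of the 10 genes. Values of the listed partners Cd200r1, Lgals3, Pvrl2 and Pvrl3 are not given. For each of the 10 genes with 5 CPM in at least 7 libraries, the 3 genes nearest in centred log2(CPM + 1) were named, among genes averaging at least 50 CPM. No scaling factors entered this distance, so a low value shared in a gene-poor library brings genes nearer. Lengths come from merged exons of GENCODE release M21, and 7 of the 10 genes had a RefSeq promoter entry.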

Additional observations from a re-analysis of the deposited data

How the results depend on the processing

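The number of all genes called depended on every choice tried. From 29, 6, 65 and 120 (anti-CTLA-4 against Control, anti-PD-1 against Control, anti-CTLA-4 against anti-PD-1, and any difference over the 3 groups), it moved to 0, 0, 0 and 19 with RLE factors, to 0, 0, 6 and 12 with library totals only, to 574, 422, 852 and 68 with DESeq2, and to 0, 1, 2 and 15 with voom. Without a filter it was 64, 2 and 98 in the first 3, with 5 CPM in 3 libraries 17, 3 and 38, and with only the 2 groups compared 1, 0 and 31. Without the 2 libraries with the fewest genes it was 1, 2, 16 and 6. Leaving out each library in turn gave 0 to 79, 0 to 5, 6 to 145 and 3 to 201. Of the 10 genes, 0 were called in anti-CTLA-4 against Control under each alternative. In anti-PD-1 against Control DESeq2 called 1, Cd96. In anti-CTLA-4 against anti-PD-1 library totals and DESeq2 called 1 each, leaving out 1 library 0 to 1, and leaving out the 2 libraries 2. Over the 3 groups library totals and voom called 1 each, and leaving out 1 library gave 0 to 1. The cause of these moves was not tested.

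With the replicate number as a block, 10, 1, 12 and 17 genes were called, and Tigit in anti-CTLA-4 against anti-PD-1 stood at -1.14 with an adjusted p of 0.174 (edgeR). Deviations of libraries with the same number correlated at -0.035 to 0.018, and those with different numbers at -0.023 to 0.03. No pairing by number was seen, but with so wide a spread between mice this check cannot exclude one. Under the block Entpd1 in anti-CTLA-4 against anti-PD-1 turned to -0.08.

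Signs turned as follows. In anti-CTLA-4 against Control, RLE factors and DESeq2 turned Tigit to 1.32 and Lag3 to 0.34. There Cd200, fitted at 0.01, went to -0.20 with library totals, -0.02 with no filter, -0.03 with 5 CPM in 3 libraries and -0.05 with the 2 groups only, and ran from -0.80 to 1.01 when 1 library was left out. Entpd1 went to -0.18 with library totals, -3.53 with voom and -0.69 without the 2 libraries, and ran from -0.69 to 1.41 without 1 library. Cd96 ran from -0.11 to 3.58. In anti-PD-1 against Control, Nt5e, fitted at -0.03, went to 0.14 with RLE factors and DESeq2 and to 0.40 without the 2 libraries, and ran from -0.83 to 0.43. In anti-CTLA-4 against anti-PD-1, RLE factors and DESeq2 turned Tigit to 0.49. Cd226 ran from -9.22 to 1.98, Entpd1 from -1.27 to 0.81 and Tox from -0.49 to 1.57 without 1 library. The Cd226 values are not measured folds, because its anti-CTLA-4 libraries are at the floor. Entpd1 went to -0.55 with library totals, -4.30 with voom and -1.16 without the 2 libraries, and Tox to -0.32 with voom and -0.12 without the 2 libraries. Detection limits Cd160, at 0 throughout, and Cd226, Cd96 and Cd200, which reached 5 CPM in 3, 4 and 6 of 9 libraries.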
